A study of Homo sapiens with 6 samples.

Results

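The amino acid response is the set of genes that a cell turns on when amino acids run short or protein synthesis is under stress. Kinases that sense the stress phosphorylate the translation factor eIF2, which lowers general translation and favours translation of ATF4, a transcription factor. ATF4 in turn drives genes for making, importing and charging amino acids, together with DDIT3 (CHOP), NUPR1 and feedback inhibitors such as TRIB3. The 10 genes described here are ATF4, DDIT3, NUPR1, TRIB3, CHAC1, PSAT1, PHGDH, SHMT2, MTHFD2 and SLC7A11, and all 10 were found by gene name among the 20745 genes of the authors' deposited table. They were chosen by name with the authors' comparison of levamisole and vehicle already known. That comparison was not used here, so the values below are levels and no effect of levamisole is given.

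The cells were AB 8/13 podocytes, a human line of glomerular epithelial cells that carries a temperature-sensitive immortalizing gene. They were grown at 33 °C and differentiated at 37 °C for 7 to 10 days. There were 3 vehicle cultures and 3 cultures exposed for 24 h to 1 µM levamisole, an anthelmintic that is also given in nephrotic syndrome. The treatment protocol given with the samples places both groups in medium without serum. Of the shorter treatment labels, that of the vehicle cultures reads serum free and that of the levamisole cultures names no medium. The paper's methods describe complete medium for the vehicle group. The 3 cultures of each group came from different passages of the same line, so they share its genotype. The libraries followed a modified CEL-seq method, which primes on the poly(A) tail and so samples mainly the 3′ ends of transcripts.

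The authors' deposited table gives each gene a base mean, the count normalized for library size and averaged by the authors over all libraries of their fit. It is a single pooled value, so it has no spread, and the depth of each library is unknown. Neighbours in the order of levels therefore cannot be tested against each other. The number of libraries behind the base mean is not given in the sources used here. The paper's methods state a minimum of 5 reads for each gene and sample. The table was not limited in that way, since its lowest base mean was 0.194 and 7409 genes lay under 5.

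ATF4 binds DNA with C/EBP partners at the C/EBP-ATF response element. Its core was searched as TGATGNAA on both strands (TTNCATCA on the other) in RefSeq promoters of GRCh38.p14, from 250 bases before to 50 after each start. The promoter table held 7 of the 10 genes, namely ATF4, DDIT3, TRIB3, CHAC1, PSAT1, PHGDH and MTHFD2. The core was present in 1 of these 7, CHAC1, against 4.46% of the 27305 genes with a promoter in the table and 2.70% of the 9865 with a base mean of at least 5. Among 42 other genes of the amino acid response with a promoter, 17 held the core. Before the start alone 10 of the 42 held it, against 3.89% of all genes with a promoter. The site in CHAC1 is printed first because it is the one among the 10 genes, and those in ASNS, CEBPG, AARS1 and SLC1A5 are printed for comparison. Each is written 5′ to 3′ on the strand of its gene, with the core in capitals.

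CHAC1, chr15:40953251-40953280, plus strand: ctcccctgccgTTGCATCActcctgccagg
ASNS, chr7:97872458-97872487, minus strand: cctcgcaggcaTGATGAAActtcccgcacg
CEBPG, chr19:33374060-33374089, plus strand: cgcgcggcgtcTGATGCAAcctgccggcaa
AARS1, chr16:70289675-70289704, minus strand: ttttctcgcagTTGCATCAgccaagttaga
SLC1A5, chr19:46784893-46784922, minus strand: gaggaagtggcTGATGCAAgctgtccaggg

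The core in CHAC1 began 209 bases before the RefSeq start (40953471, also the start of the canonical GENCODE transcript) and lay on the opposite strand to the gene. That in ASNS began 68 bases before its RefSeq start, that in CEBPG 42, that in AARS1 187 and that in SLC1A5 97. All 5 cores were inside the bounds of their gene in GENCODE 44, which takes in transcripts with earlier starts. This does not hold for all the sites found. The cores before the start in ATF3, FGF21 and PPP1R15B, not printed, lay in none of the annotated transcripts of their gene. In CHAC1 the core was in a non-coding part of an exon of 1 of the 3 transcripts, in ASNS of 2 of 17 and in AARS1 of 1 of 42. In CEBPG and SLC1A5 it was in an intron of the canonical transcript, whose start lies before the RefSeq start used. The core of CHAC1, CEBPG, AARS1 and SLC1A5 had C at the free base, and that of ASNS had A. The version with C was present in 1 of the 7 genes, in 12 of the 42 other genes and in 1.08% of all genes with a promoter. A match is a run of letters and not evidence of binding, and 300 bases leave out sites within genes or farther away.

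All 10 genes had a base mean above the median of the table (21.8), and 8 of them were above the median of its 14455 protein-coding genes (66.2). Their base means ran from 28.3 for SLC7A11 to 1733 for PSAT1, a 61.2-fold range, with a median of 110. A base mean of at least 5 was found for 10 of the 10, against 64.3% of all genes and 81.9% of protein-coding genes. At a minimum of 50 it was found for 8 of the 10, against 39.9% and 55.5%. The enzymes of serine synthesis and mitochondrial folate metabolism held the top of the order by base mean, and the stress transcription factor DDIT3 and the cystine carrier SLC7A11 the bottom.

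**Figure D1:**
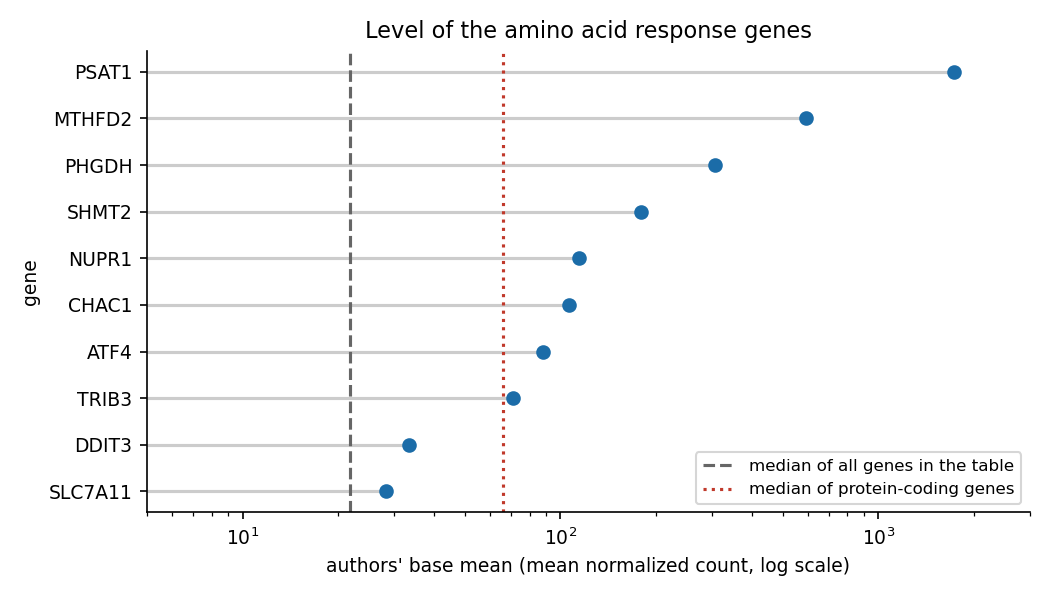
Authors' base mean of the 10 genes on a log axis, 1 pooled value per gene and therefore no error bars. The dashed line is the median of all genes (21.8) and the dotted line that of protein-coding genes (66.2). All 10 points lie to the right of the dashed line, and DDIT3 and SLC7A11 lie between the lines.

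Among the transcription regulators, ATF4 (ENSG00000128272, chromosome 22 of GRCh38, 39519695 to 39522683, plus strand) had a base mean of 88.4. This placed it at percentile 68.8 of all genes and 56.2 of protein-coding genes. DDIT3 (ENSG00000175197, chromosome 12, 57516588 to 57521737, minus strand), the factor CHOP that is linked to cell death under prolonged stress, had a base mean of 33.5, at percentile 55.0. NUPR1 (ENSG00000176046, chromosome 16, 28532708 to 28539008, minus strand), a small chromatin-associated protein of the stress response, had a base mean of 115, at percentile 73.1. The base mean of ATF4 was 2.64 times that of DDIT3 and 0.771 times that of NUPR1. Of the other regulators listed, ATF3 (251) and CEBPB (250) had base means 2.84 and 2.83 times that of ATF4.

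TRIB3 (ENSG00000101255, chromosome 20, 362835 to 397559, plus strand) encodes a pseudokinase that restrains AKT and ATF4 itself. Its base mean was 70.8, at percentile 65.4 and close to the median of protein-coding genes. CHAC1 (ENSG00000128965, chromosome 15, 40952962 to 40956512, plus strand), an enzyme that breaks down glutathione, had a base mean of 106, at percentile 71.7. TRIB3 thus had 0.666 times the base mean of CHAC1. Both were low beside GDF15, a secreted stress cytokine with the highest base mean of the feedback and stress targets (1240.5, 11.7 times CHAC1). DDIT4, an inhibitor of mTORC1, was the lowest of that group by base mean (70.2), and FGF21 was not among the genes of the table.

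PSAT1 (ENSG00000135069, chromosome 9, 78297125 to 78330093, plus strand), the aminotransferase of the serine pathway, had a base mean of 1733. It stood at place 375 of 20745 genes and took 53.2% of the summed base means of the 10 genes. PHGDH (ENSG00000092621, chromosome 1, 119648411 to 119744218, plus strand), the dehydrogenase that opens the pathway, had a base mean of 307, at percentile 87.0. PSAT1 therefore had 5.64 times the base mean of the enzyme before it, and 29.4 times that of PSPH (58.9), the phosphatase that completes serine synthesis. SHMT2 (ENSG00000182199, chromosome 12, 57229573 to 57234935, plus strand), the mitochondrial enzyme that turns serine into glycine, had a base mean of 179, at percentile 79.8. Its cytosolic counterpart SHMT1 had 2.54 times as much (456).

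MTHFD2 (ENSG00000065911, chromosome 2, 74186172 to 74217565, plus strand), which oxidizes the folate-bound carbon that SHMT2 releases, had a base mean of 594, at percentile 93.3. It was 4.45 times that of MTHFD1L (133), which acts after it in mitochondria, and 26.9 times that of ALDH1L2 (22.1), the lowest of the folate enzymes. The cytosolic enzyme MTHFD1 had nearly the same base mean as MTHFD2 (603, a ratio of 1.02). MTHFD2 had 1.93 times the base mean of PHGDH, whereas SHMT2 had 0.302 times that of MTHFD2.

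SLC7A11 (ENSG00000151012, chromosome 4, 138164097 to 138242349, minus strand), the cystine/glutamate exchanger that supplies cysteine for glutathione, had the lowest base mean of the 10 genes (28.3, percentile 52.9). Its heavy chain SLC3A2, which other carriers share, had a base mean of 679, 23.9 times higher. SLC7A5, another light chain of SLC3A2, had 7.27 times the base mean of SLC7A11. Within the transport group SLC7A1, a carrier of cationic amino acids, was highest by base mean (914), and SLC6A9, a glycine carrier, was lowest (1.82).

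Comparing genes by base mean assumes that reads come from the 3′ end whatever the length of the transcript. Divided by the length of the longest annotated transcript (GENCODE 44), the levels ran from 2.94 per kb for SLC7A11 to 786 per kb for PSAT1, a 267-fold range. PSAT1 and SLC7A11 stayed at the ends of the order. SLC7A11 was then under the median of all genes, at percentile 36.8, and at 35.1 per kb of the canonical transcript. PHGDH (96.7 per kb) passed MTHFD2 (91.2 per kb), and CHAC1 (69.9 per kb) passed SHMT2 (52.4 per kb). DDIT3 (31.4 per kb) passed TRIB3 (30.1 per kb), and the ratio of ATF4 to DDIT3 fell to 1.396.

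Several other ratios given above by base mean moved on these scales. ATF4 turned from below NUPR1 to above it, at 2.02 times per kb of the longest transcript and 2.87 times per kb of the canonical one. MTHFD1 fell just under MTHFD2 per kb of the longest transcript (a ratio of 0.970) but stayed above it per kb of the canonical one (1.42). SLC3A2 had 81.2 and 122.5 times the level of SLC7A11 on the length scales, and SLC7A5 had 15.4 times on both. SLC3A2 (239 and 360 per kb) also passed SLC7A1 (124 per kb on both) as the highest of the transport group. SHMT2 was at 0.575 and 0.616 times the level of MTHFD2, and TRIB3 was at 0.430 times that of CHAC1 on both. On both scales TRIB3 (30.1 per kb), and not DDIT4 (35.7 and 40.2 per kb), was the lowest of the feedback and stress targets. MTHFD2 had 2.38 and 3.49 times the level of MTHFD1L, and 33.9 and 45.4 times that of ALDH1L2.

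NUPR1 moved most, from place 5 by base mean to place 9 per kb (21.7 per kb). Its canonical transcript, the one Ensembl chooses to represent the gene, is also its longest (5.29 kb), while the shortest of its 3 annotated transcripts is 0.55 kb. By that short transcript its level would be 209 per kb. The base mean does not tell which transcript was present. Per kb of the canonical transcripts, PHGDH (165 per kb) again passed MTHFD2 (135 per kb), while SHMT2 (83.0 per kb) stayed above CHAC1.

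**Figure D2:**
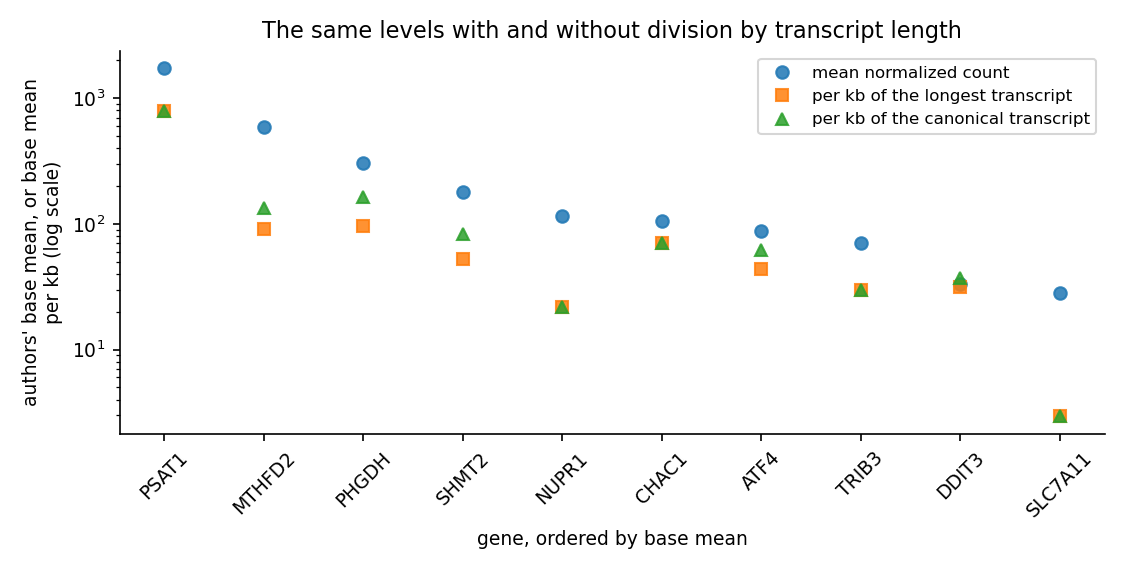
Levels of the 10 genes on a log axis, ordered by the authors' base mean (circles), with the base mean per kb of the longest transcript (squares) and of the canonical transcript (triangles). NUPR1 drops from 115 to 21.7 per kb on both length scales, and PSAT1 and SLC7A11 stay highest and lowest on all 3 scales.

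The 10 genes were set beside a list of 60 amino acid response genes in 8 groups, the 10 included. Of these 60, 59 were in the table, 57 had a base mean of at least 5, and the median was 208. By base mean 3 of the 10 genes (PSAT1, MTHFD2 and PHGDH) were among the upper 30 genes of the list and 7 among the lower 29. The upper 30 held 4 of them per kb of the longest transcript, with CHAC1 added, and 5 per kb of the canonical one, with CHAC1 and SHMT2 added. By base mean PSAT1 was second only to EIF2AK1 (2614), the heme-regulated kinase of eIF2, which had 1.51 times its base mean. On both length scales EIF2AK1 had 0.754 times the level of PSAT1, and PSAT1 was second to GDF15 (839 per kb of the longest transcript).

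Upstream of ATF4, all 8 listed kinases and eIF2 regulators had a base mean of at least 5, with a median of 266. That minimum was met by 64.3% of all genes and 81.9% of protein-coding genes. EIF2AK1 had 17.9 times the base mean of EIF2AK4 (146), the kinase GCN2 that senses uncharged tRNA. It had 67.7 times that of EIF2AK3 (38.6), the endoplasmic reticulum kinase PERK and the lowest of the group by base mean. Downstream, all 14 genes of the group of aminoacyl-tRNA synthetases and translation had a base mean of at least 50, from 142 for AARS1 to 1056 for IARS1, with a median of 319. These 2 enzymes load alanine and isoleucine onto their tRNAs. On both length scales SARS1 (512 per kb on both) passed IARS1 (122 and 235 per kb) as the highest of the group. The minimum of 50 was met by 39.9% of all genes and 55.5% of protein-coding genes. In other amino acid synthesis ALDH18A1, an enzyme of proline synthesis, was highest (208).

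**Figure D3:**
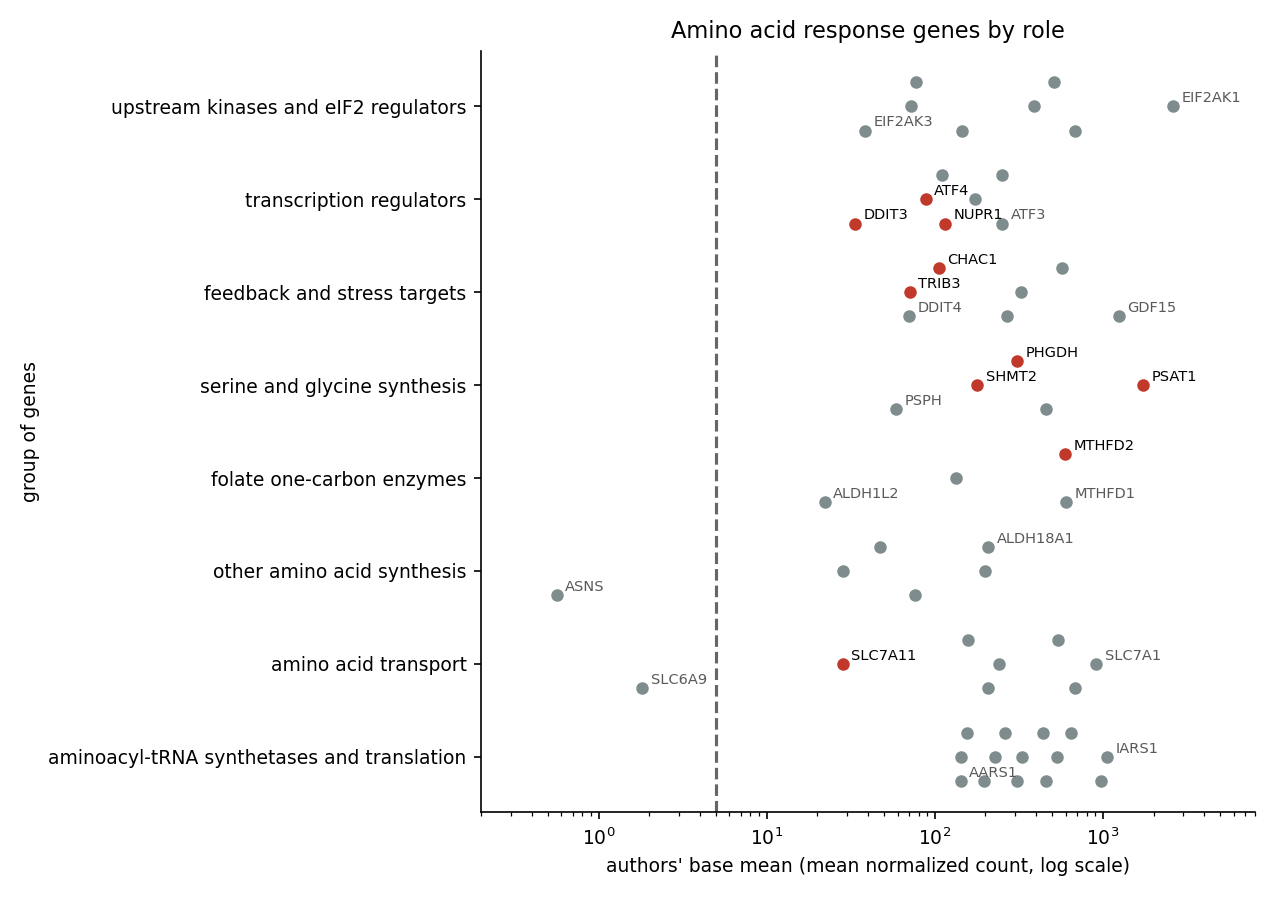
Authors' base mean (log axis) of 59 amino acid response genes in 8 groups by role, with the 10 genes described here in red and the others in grey. The dashed line marks a base mean of 5, and ASNS (0.565) and SLC6A9 (1.82) are the 2 genes to its left.

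The lowest gene of the list was ASNS, asparagine synthetase and a classic ATF4 target. Its base mean was 0.565, so PSAT1 had 3066 times as much. Of the last 500 bases of the canonical ASNS transcript, 97.8% were covered by exons of another annotated gene on the same strand (ENSG00000284707), which was not among the genes of the table. By default HTSeq-count leaves uncounted a read that fits exons of 2 genes. The part of this overlap in the value of ASNS was not tested, and the exons come from a later annotation than the authors used. For none of the 10 genes were any of the last 500 bases covered in this way. On the opposite strand, all 500 bases of the MTHFD2 end were covered by SLC4A5. Other genes of the opposite strand covered 63 bases of the DDIT3 end and 33 of the SHMT2 end. Those reads are told apart only if strand was used in counting, which is the default of HTSeq-count.

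A read that fits several places equally well is also left uncounted by these defaults. The last 500 bases of each canonical transcript were therefore cut into 441 words of 60 bases, the length of the mapped read, and searched for exactly in the genome. For ATF4, 184 of the 441 words (41.7%) also occurred elsewhere, and for PSAT1 69 words (15.6%). PHGDH had 2 such words (0.454%) and the other 7 genes had 0. Of the other genes named above, PSPH had 134 such words (30.4%) and IARS1 55 (12.5%). GENCODE 44 names 4 processed pseudogenes for ATF4, 4 for PSAT1 and 7 for MTHFD2, and none of these 15 was in the table, although 1236 processed pseudogenes were. The base means of ATF4, PSAT1, PSPH and IARS1 are thus uncertain, and the part of the repeated words in them was not tested.

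**Figure D4:**
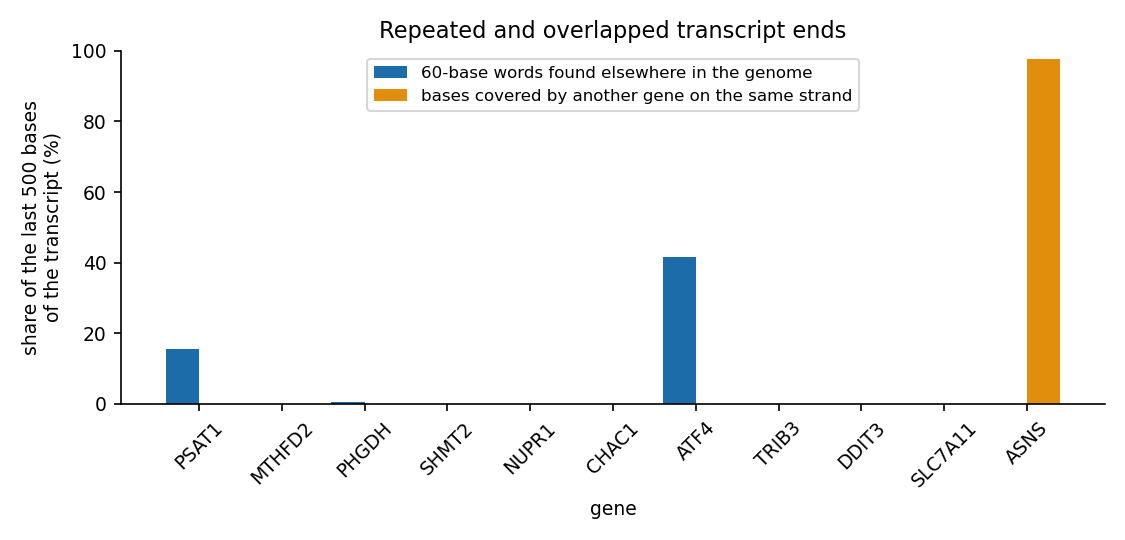
Share of the last 500 bases of the canonical transcript, in percent, for the 10 genes in order of base mean and for ASNS. Blue bars give 60-base words found elsewhere in the genome (41.7% for ATF4, 15.6% for PSAT1) and orange bars give bases shared with another gene of the same strand (97.8% for ASNS).

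The label of the cells was compared with markers. Of 11 podocyte markers 10 were in the table and 8 had a base mean of at least 5. CD2AP (929), KIRREL1 (253) and TJP1 (247) were the most abundant, whereas WT1 had a base mean of 6.21 and PODXL of 15.3. NPHS1, which encodes nephrin of the slit diaphragm, was not among the genes of the table. All 4 parietal epithelial markers had a base mean of at least 5, with CLDN1 at 2965 and PAX8 at 1198. Of 5 mesangial and fibroblast markers 4 were in the table and 3 had a base mean of at least 5, namely COL1A1 (2733), ACTA2 (1021) and THY1 (27.5). PDGFRB had a base mean of 4.14, and DES was not among the genes of the table. Of 5 endothelial markers 3 were in the table, all under 1, and of 4 leukocyte markers 2 were in the table, both under 5. For CD68, 1 of these 2 (1.06), 82.6% of the last 500 bases were shared with another gene of the same strand (ENSG00000264772), and the part of this in its low value was not tested. Of 5 tubular markers 2 were in the table, AQP1 with a base mean of 243 and CUBN with 1.22, while LRP2, SLC12A1 and UMOD were not.

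**Figure D5:**
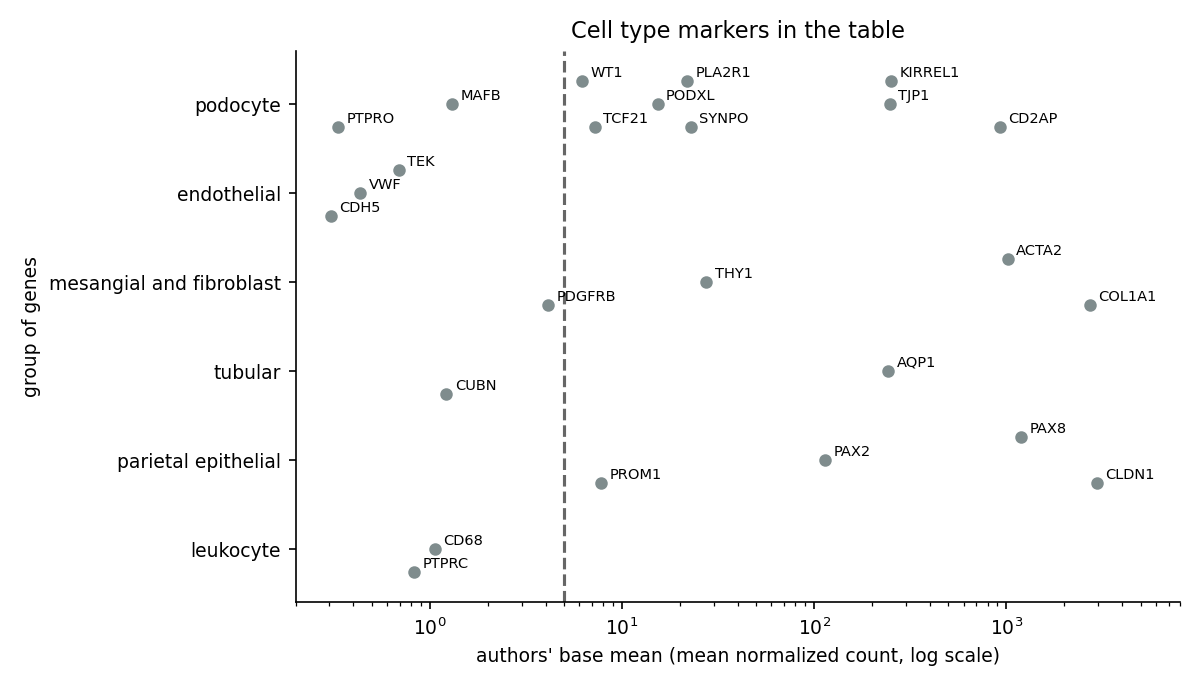
Authors' base mean (log axis) of the markers of 6 cell types that were in the table, with a dashed line at 5. CLDN1 (2965) and COL1A1 (2733) are the 2 highest points, and all endothelial and leukocyte points lie left of the line.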

How the data were processed

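RNA from 3 vehicle and 3 levamisole cultures was sequenced. The authors trimmed reads with Trim Galore 0.4.5, mapped them to GRCh38 with STAR 2.7.5a, counted them with HTSeq 0.11.0 and fitted DESeq2 1.22.0. The base mean deposited by the authors is a signal, the mean normalized count over their libraries. The other 5 value columns of that table hold the authors' own log2 fold change, its error, a test statistic and p-values, and were not used. With no values per culture, edgeR was not run and levamisole was not compared with vehicle.

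Levels, percentiles, transcript lengths, covered ends and repeated words were computed with Python 3.11.15, NumPy 2.4.6 and pandas 2.3.3, using GENCODE 44 on GRCh38, which matched 20599 of 20745 genes. The search for words and motifs was tested on simulated data. Promoters came from RefSeq. Of the listed cell type markers, 1 was left out and is not reported here. The 10 genes and the lists were chosen with earlier results of these data known. Named were the 10 genes, the highest and lowest gene of each group, genes under 5 or not in the table, and neighbouring genes of a pathway step, the last chosen after their values were seen. Alternatives were other reference genes, length scales, thresholds and motif settings.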

Additional observations from a re-analysis of the deposited data

How the results depend on the processing

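No paired analysis was possible because the table gives 1 pooled value per gene. Leaving out replicates and fits with edgeR or DESeq2 were not run, since they need a value for each culture. The median percentile of the 10 genes by base mean was 72.4 among all genes. It was 57.1 among genes whose base mean reached 5, 61.1 among protein-coding genes and 79.7 per kb of the longest transcript. Per kb of the canonical transcript, an alternative chosen after seeing the data, it was 81.9. The summed base means of the 10 genes made up 0.0513% of all base means, and 0.0787% without the 22 mitochondrially encoded genes, which took 34.8% of the sum. The share of PSAT1 in the 10 genes was 53.2% by base mean, 64.1% per kb of the longest transcript and 56.4% per kb of the canonical one. The share of all promoters with the core fell from 4.46% to 2.70% for genes whose base mean reached 5. Counts of genes above the threshold stayed within 1.5 times at minimums of 1, 10 and 50, with 8 of the 10 genes and 51 of the 59 at 50. The minimum of 50 was met by 39.9% of all genes and 55.5% of protein-coding genes. The core was present in 1 of 7 genes with C at its free base and before the start alone. For the 42 other genes, where these settings were added after seeing the data, the count fell from 17 to 12 and 10. The upper 30 genes of the amino acid response list held 3 of the 10 genes by base mean, and 4 and 5 per kb of the longest and of the canonical transcript, both scales added here after seeing the data.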

Other observations

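The low value of ASNS was followed over the table. Among its 14455 protein-coding genes, 185 had at least 90% of the last 500 bases of their canonical transcript covered by other genes on the same strand, counting covering genes whose identifiers do not postdate the table. Their median base mean was 3.04, and 105 of them (56.8%) were under 5. The 13958 genes with no base covered had a median of 69.1, and 17.5% of them were under 5. This check was chosen after the value of ASNS was seen, and the part of the overlap in these levels was not tested. The exons are those of GENCODE 44, a later annotation than that of the authors.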
